A study of Arabidopsis thaliana with 21 samples.

Results

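Plants labelled aba2/GA20OX1-OE were compared with the wild type Col-0 in aerial parts. They make up 6 arrays, 3 for each genotype, of the 21 arrays of 7 genotypes in the series, and were chosen by their titles alone. The label aba2/GA20OX1-OE joins the mutant aba2 with the line GA20OX1-OE, in which OE commonly stands for overexpression. Col-0 is the wild type, and every mutant and transgenic line of the series is in its background. All plants grew in soil for 21 days, and their aerial parts were used. The sources used here do not give the promoter that drives GA20OX1, the aba2 allele, the number of independent lines or the number of plants behind an array. Nothing says whether replicate arrays stand for separate plants or harvests, and the p-values then cover just the spread among these arrays, which may be technical. The genotypes aba2, GA20OX1-OE and aba2/ga20ox1 served for direct comparisons with aba2/GA20OX1-OE, again with 3 arrays each.

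Abscisic acid (ABA) is the plant hormone of drought, cold and seed dormancy responses, and ABA2 encodes an enzyme late in its synthesis. Gibberellin (GA) promotes stem and leaf expansion and flowering by causing the breakdown of DELLA repressor proteins, and GA20OX1 encodes an enzyme late in GA synthesis. Leaf development under both hormones is the subject that the series title names. Neither ABA2 nor GA20OX1 was named for any probe set (0 each) in the annotation used here, so the transcripts that define the genotype were not checked. The labelled tissue was checked with transcripts of photosynthesis: PSAN, a subunit of photosystem I, read 14.15, 14.06 and 13.80 in aba2/GA20OX1-OE and 14.66, 14.49 and 14.36 in Col-0 on the log2 signal scale, so that this transcript of green tissue lay far above the low-signal bound (5.26) on all 6 arrays.

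Against Col-0, 1373 of 15922 tested probe sets changed in aba2/GA20OX1-OE (8.62%), 811 of them higher and 562 lower, at a Benjamini-Hochberg adjusted p under 0.05 from limma fitted on all 21 arrays. The change was at least 2-fold for 358 of the higher and 137 of the lower probe sets. All differences below are in log2 of the deposited signal, aba2/GA20OX1-OE minus Col-0 unless another line is named, with the standard error (SE) of the fit and 3 arrays a group. Of the called probe sets 663 had 1 gene in the annotation and 710 could not be named. The median difference of all tested probe sets was 0.11, and after quantile normalization -0.01; the share of higher calls was 59.1% as deposited and 48.9% after quantile normalization (621 higher and 648 lower). The median signal was 164, 149 and 187.5 in aba2/GA20OX1-OE and 136, 138 and 157 in Col-0; aba2/GA20OX1-OE replicate 3 had the highest median of all 21 arrays and the highest value on the first principal component (54.8). Without it 839 probe sets were called, of which 769 were among the 1373, and without Col-0 replicate 1 there were 822, of which 754 were among them. RNA came from whole aerial parts, so fewer cells of a type and less RNA per cell cannot be told apart.

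**Figure D1:**
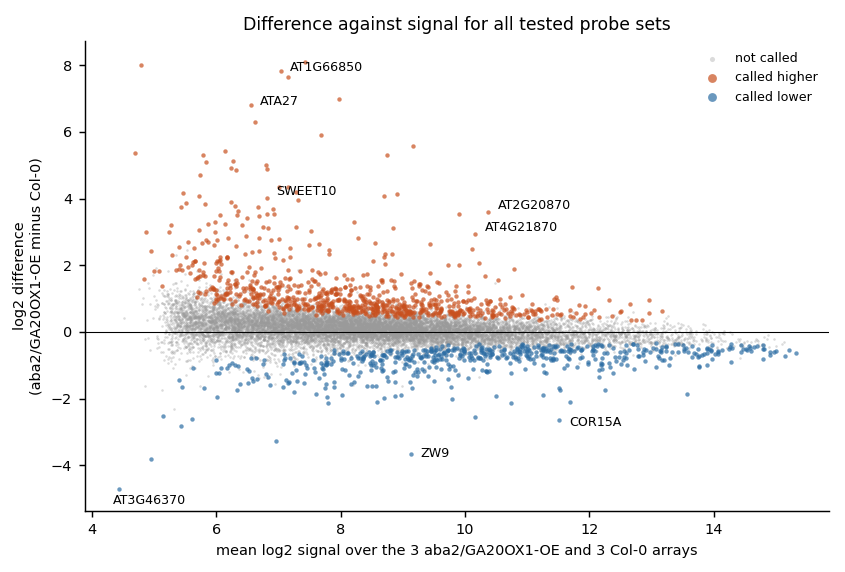
Log2 difference (aba2/GA20OX1-OE minus Col-0) against mean log2 signal over both groups for the 15922 tested probe sets, with the 811 called higher in orange, the 562 called lower in blue and the rest in grey. The labelled rises of ATA27 and AT1G66850 lie at low to middle mean signal, while the falls of ZW9 and COR15A lie at middle to high signal.

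Transcripts with known ties to ABA and cold were lower in aba2/GA20OX1-OE. COR15A, which encodes a protein that protects chloroplast membranes on freezing, read 9.55, 11.39 and 9.68 in aba2/GA20OX1-OE, against 13.29, 12.82 and 12.39 in Col-0. The groups did not overlap, and aba2/GA20OX1-OE replicate 2 was the highest of its group by a wide margin. The difference was -2.63 (SE 0.33, adjusted p = 2.3e-05), a level 6.17-fold lower. Its near copy COR15B read 11.99, 12.59 and 11.75 in aba2/GA20OX1-OE and 12.97, 13.06 and 13.26 in Col-0 (-0.99, SE 0.20, adjusted p = 0.0035). COR47, a dehydrin that accumulates in cold and drought, read 11.77, 12.11 and 12.13 in aba2/GA20OX1-OE and 12.93, 12.57 and 13.11 in Col-0 (-0.87, SE 0.19, adjusted p = 0.0054). HIS1-3, a linker histone induced by drought, read 5.61, 5.53 and 5.22 in aba2/GA20OX1-OE and 7.06, 6.76 and 7.80 in Col-0 (-1.75, SE 0.49, adjusted p = 0.027). The arrays of both groups were apart for each of these 4 genes, as they were for 23.0% of all tested probe sets. The dehydrin LTI30 differed by -0.30 (SE 0.20, adjusted p = 0.40) and HVA22C by -0.06 (SE 0.16, adjusted p = 0.85), both with overlapping arrays.

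Of the 6 tested members of the list of ABA- and cold-induced genes, 4 were thus lower and 0 higher, beside 3.53% lower and 5.09% higher of all tested probe sets. Their median difference was -0.93 (-0.80 after quantile normalization), against 0.11 (-0.01) for all. This list was chosen with earlier results of these data known, so its counts and median are a description and no independent test. The HIS1-3 call ended without any single array other than Col-0 replicate 2, with an adjusted p of up to 0.10. No probe set was named for the ABA receptors and their signalling partners, for GA synthesis, for the GASA family of GA-induced peptides or for water channels (0 each). Of ABA synthesis, catabolism and transport, 1 member was tested, BGLU33, and 0 were called (-0.19, adjusted p = 0.82).

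None of the 7 tested genes of GA perception and its control passed the test, with a median of 0.26 (0.13 after quantile normalization). They were the receptors GID1A, GID1B and GID1C, the F-box proteins SLY1 and SLY2, which target DELLA proteins for breakdown, and the O-linked sugar transferases SPY and SEC. SLY2 had the smallest p: it read 6.92, 6.91 and 7.11 in aba2/GA20OX1-OE and 6.53, 6.33 and 6.07 in Col-0 (0.67, SE 0.26, adjusted p = 0.12). Its arrays did not overlap, but the difference did not pass the threshold.

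The largest falls among named genes with both means above the low-signal bound were led by ZW9, a TRAF-like protein. It read 7.66, 6.87 and 7.37 in aba2/GA20OX1-OE, against 11.11, 10.89 and 10.86 in Col-0. The difference was -3.65 (SE 0.16, adjusted p = 2.6e-12), 12.6-fold lower, and ran from -3.83 to -3.44 as each array was left out. AT2G20670 read 5.58, 6.42 and 3.99 in aba2/GA20OX1-OE and 9.04, 8.26 and 8.49 in Col-0 (-3.27, SE 0.49, adjusted p = 0.00014). Genes without a symbol are given by locus code and with no role. MSRB6, a methionine sulfoxide reductase that repairs oxidised methionine, read 9.72, 9.79 and 9.12 in aba2/GA20OX1-OE and 11.36, 11.66 and 11.37 in Col-0 (-1.92, SE 0.20, adjusted p = 1.9e-06). The other 6 beside COR15A were AT1G62510 (-2.15), AT5G03350 (-2.11), AT1G31690 (-2.02), AT1G51090 (-1.97), AT4G14020 (-1.94) and AT5G03120 (-1.88). All 10 had arrays apart by the rule that chose them.

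The matching 10 rises ran from 2.48 (AT3G28500) to 4.14 (AT5G22430). AT5G22430 read 10.83, 11.20 and 10.89 in aba2/GA20OX1-OE and 5.58, 7.66 and 7.27 in Col-0 (SE 0.53, adjusted p = 2.7e-05). AT2G20870 read 12.09, 12.29 and 12.14 in aba2/GA20OX1-OE and 7.19, 9.47 and 9.07 in Col-0 (3.59, SE 0.50, adjusted p = 7.3e-05). In both, Col-0 replicate 1 was the lowest array, and aba2/GA20OX1-OE varied little. AT4G21870 read 11.72, 11.53 and 11.67 in aba2/GA20OX1-OE and 8.25, 8.75 and 9.10 in Col-0 (2.94, SE 0.22, adjusted p = 3.6e-08). RXF26 differed by 3.95 (SE 0.72, adjusted p = 0.0012).

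QQS, an Arabidopsis gene without homologues that affects the split of carbon between starch and protein, read 10.20, 9.54 and 9.32 in aba2/GA20OX1-OE and 6.49, 6.36 and 7.78 in Col-0 (2.81, SE 0.74, adjusted p = 0.019). Its call ended without Col-0 replicate 1, Col-0 replicate 2 or aba2/GA20OX1-OE replicate 1, with an adjusted p of up to 0.078. Its level varied among lines: 10.83, 10.74 and 10.81 in aba2, 11.19, 6.68 and 11.05 in GA20OX1-OE, and 6.74, 5.83 and 7.53 in aba2/ga20ox1. GA20OX1-OE replicate 2 thus lay among the Col-0 arrays, and the other arrays of that line lay above all of aba2/GA20OX1-OE. The rest of the rises were AT1G43590 (2.78), AT3G23550 (2.68), WSD1 (2.61) and AT2G42990 (2.53). Of these 20 genes, 19 kept their call without each array in turn, QQS being the exception.

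**Figure D2:**
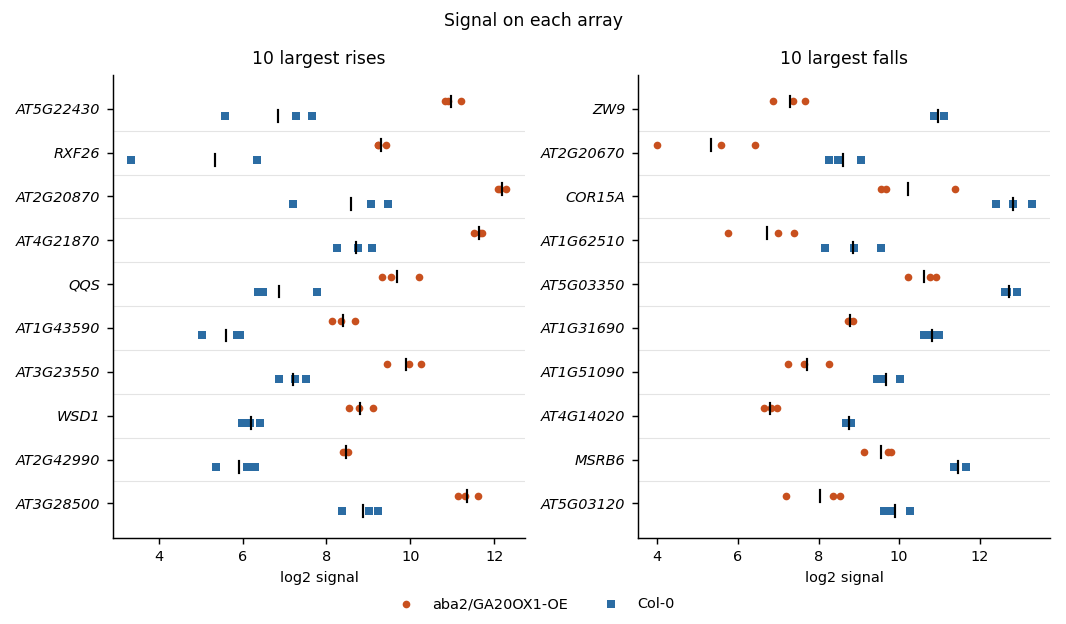
Log2 signal on each of the 3 aba2/GA20OX1-OE arrays (orange circles) and the 3 Col-0 arrays (blue squares) for the 10 largest rises and 10 largest falls among named genes with both means above the low-signal bound; black ticks are group means. The groups are apart for all 20 genes, and 1 Col-0 array lies far below the others for RXF26, AT5G22430 and AT2G20870.

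A further set of genes had 1 group mean under the low-signal bound of 5.26, where a log2 difference is no measure of fold. ATA27, named for its expression in anthers, read 9.60, 10.38 and 9.91 in aba2/GA20OX1-OE and 1.72, 4.42 and 3.30 in Col-0. The log2 difference was 6.82 (SE 1.03, adjusted p = 0.00018), and 5.05 with a pseudocount of 20.1 added to every signal. AT1G66850 read 10.54, 11.52 and 10.78 in aba2/GA20OX1-OE and 0.82, 6.04 and 2.51 in Col-0 (adjusted p = 2.1e-05; 5.77 with the pseudocount). In both genes every Col-0 array lay far below the lowest aba2/GA20OX1-OE array, and Col-0 replicate 1 was the lowest.

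AT1G68875, AT5G07230 and AT3G52130 rose likewise, by 4.79, 3.72 and 3.50 with the pseudocount. In the other direction AT3G46370 read 2.52, 1.57 and 2.11 in aba2/GA20OX1-OE and 6.97, 6.35 and 7.04 in Col-0 (adjusted p = 1.8e-05; -2.42 with the pseudocount). AT1G59930 read 3.36, 4.28 and 4.0 in aba2/GA20OX1-OE and 6.46, 6.34 and 6.37 in Col-0 (adjusted p = 0.0032), on a probe set of the type that can bind transcripts of several genes. AT3G18170 (adjusted p = 0.024) and AT1G23120 (adjusted p = 0.040) were also lower. The AT3G18170 call ended without Col-0 replicate 1 or 2 or aba2/GA20OX1-OE replicate 1 or 3, and that of AT1G23120 without any single array other than aba2/GA20OX1-OE replicate 3. Of these 9 genes, 7 kept their call without each array.

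Sugar transporters of the SWEET family split by member. SWEET10, a plasma membrane sucrose exporter, read 8.87, 8.47 and 9.09 in aba2/GA20OX1-OE and 4.99, 5.04 and 4.37 in Col-0, with a difference of 4.01 (SE 0.41, adjusted p = 2.1e-06). SWEET3 read 8.17, 7.84 and 7.73 in aba2/GA20OX1-OE and 5.63, 4.68 and 4.81 in Col-0 (2.87, SE 0.35, adjusted p = 1.6e-05). SWEET8, a glucose transporter of the anther needed for the pollen wall, read 7.63, 7.97 and 7.21 in aba2/GA20OX1-OE and 4.32, 5.0 and 5.0 in Col-0 (2.83, SE 0.44, adjusted p = 0.00022). For these 3 the Col-0 mean lay under the low-signal bound, and no array of Col-0 reached the lowest of aba2/GA20OX1-OE.

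Other members of the family fell. SWEET16, of the vacuole membrane, read 6.82, 6.99 and 6.59 in aba2/GA20OX1-OE and 7.72, 8.57 and 7.86 in Col-0 (-1.25, SE 0.29, adjusted p = 0.0076). Its call ended without Col-0 replicate 2 (adjusted p up to 0.052). SWEET4 differed by -0.90 (SE 0.17, adjusted p = 0.0020). SWEET11, a sucrose exporter of phloem loading, rose by 0.54 (SE 0.16, adjusted p = 0.036) with overlapping arrays, and lost its call without Col-0 replicate 1 or 2 or aba2/GA20OX1-OE replicate 1 or 3. In all, 4 of the 12 tested members rose and 2 fell, with a median of 0.23 (0.18 after quantile normalization). Of all tested probe sets 5.09% were called higher and 3.53% lower. SWEET10, SWEET3 and SWEET8 were low in Col-0, and the mean used by the low-signal filter included the aba2/GA20OX1-OE arrays. The share called higher therefore cannot be weighed against that of all tested. With the stricter filter 6 members were tested, 1 higher and 2 lower, with a median of 0.04. Among other carbohydrate genes AMY1, an alpha-amylase, was called higher (1.07, SE 0.32, adjusted p = 0.039), 1 of 3 tested. The AMY1 call ended without any single array other than aba2/GA20OX1-OE replicate 3, with an adjusted p of up to 0.16.

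Called cell wall genes moved in both directions. Of all tested probe sets 5.09% were called higher and 3.53% lower. Expansins loosen walls during growth, and 2 of the 12 tested were higher and 3 lower, with a median of 0.39 (0.23 after quantile normalization) and a mean of -0.07. EXPA15 read 10.12, 10.19 and 9.93 in aba2/GA20OX1-OE and 9.09, 8.87 and 8.2 in Col-0 (1.36, SE 0.23, adjusted p = 0.00062). EXPA16 read 7.07, 7.55 and 7.79 in aba2/GA20OX1-OE and 8.89, 8.92 and 9.08 in Col-0 (-1.49, SE 0.21, adjusted p = 8.8e-05). The expansin-like EXLB1 read 7.35, 6.26 and 7.09 in aba2/GA20OX1-OE and 8.21, 8.89 and 8.64 in Col-0 (-1.68, SE 0.25, adjusted p = 0.00018). The arrays of these 3 were apart.

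EXPA4 was higher by 0.67 (SE 0.19, adjusted p = 0.026) and EXLA1 lower, at 5.71, 8.99 and 7.89 in aba2/GA20OX1-OE against 8.52, 9.48 and 10.92 in Col-0 (-2.11, SE 0.63, adjusted p = 0.040), with overlapping arrays. The EXPA4 call ended without Col-0 replicate 1 or 3 or aba2/GA20OX1-OE replicate 1 or 2 (adjusted p up to 0.12). The EXLA1 call ended without Col-0 replicate 2 or 3 or aba2/GA20OX1-OE replicate 1 or 3 (adjusted p up to 0.23).

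Of 13 tested xyloglucan-modifying enzymes and endoglucanases, 2 were higher and 1 lower, beside 5.09% higher and 3.53% lower of all tested. The median was 0.23 (0.10 after quantile normalization), and the replicate block called 4 higher and 1 lower. XTH19, which cuts and rejoins xyloglucan, read 6.68, 7.68 and 6.87 in aba2/GA20OX1-OE and 5.52, 3.91 and 5.43 in Col-0 (2.12, SE 0.45, adjusted p = 0.0041), with a Col-0 mean under the low-signal bound. EXGT-A3 of the same family read 9.73, 10.74 and 9.93 in aba2/GA20OX1-OE and 11.20, 11.35 and 11.53 in Col-0 (-1.22, SE 0.20, adjusted p = 0.00035). GH9B13, a family 9 glycosyl hydrolase, differed by 0.64 (SE 0.18, adjusted p = 0.031), and its call ended without Col-0 replicate 1 or 3 or aba2/GA20OX1-OE replicate 2 or 3.

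Of 9 tested genes of the cellulose synthase superfamily and its partners, CSLA01, of the mannan synthase subfamily, was higher (1.80, SE 0.43, adjusted p = 0.011) and COB, an anchor protein of oriented cellulose deposition, lower (-0.42, SE 0.10, adjusted p = 0.011), and the median was 0.13. These 2 calls stand beside 5.09% called higher and 3.53% called lower of all tested. After quantile normalization the adjusted p was 0.066 for CSLA01 and 0.076 for COB. The call of CSLA01 ended without aba2/GA20OX1-OE replicate 2 (adjusted p = 0.071) and that of COB without Col-0 replicate 1 (adjusted p = 0.068). Of 3 tested pectin genes 0 were called, with PME61 at -0.06 (adjusted p = 0.90). ATPMEPCRD, a pectin methylesterase gene chosen after its values were seen, read 7.41, 7.22 and 6.66 in aba2/GA20OX1-OE and 5.50, 4.29 and 5.11 in Col-0 (2.13, SE 0.39, adjusted p = 0.0011), again with a Col-0 mean under the bound.

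The TBL family, whose studied members acetylate wall polysaccharides, had 4 called probe sets of 20 tested, all higher. This stands beside 5.09% higher and 3.53% lower of all tested. The median was 0.39 (0.08 after quantile normalization). TBL36 read 9.32, 10.76 and 9.91 in aba2/GA20OX1-OE and 8.82, 8.95 and 8.73 in Col-0 (1.16, SE 0.23, adjusted p = 0.0026). TBL39 read 9.67, 9.97 and 9.59 in aba2/GA20OX1-OE and 8.44, 9.17 and 8.92 in Col-0 (0.90, SE 0.17, adjusted p = 0.0016). AT2G31110, a member of the family, had a pair of probe sets that moved the same way: one read 9.50, 9.93 and 8.92 in aba2/GA20OX1-OE and 8.08, 7.83 and 7.77 in Col-0 (1.56, SE 0.20, adjusted p = 2.7e-05). The other differed by 0.92 (SE 0.22, adjusted p = 0.0088). The replicate block called 4 higher and 1 lower. After quantile normalization 3 of the 20 were called higher and 2 lower, and the adjusted p of the AT2G31110 probe set with the smaller difference was 0.064.

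Of 3 tested genes of surface lipids, WSD1 and SHN3 were higher and AT4G13840 lower, where 8.62% of all tested probe sets were called. The list is short and was chosen with earlier results of these data known, so this count is a description. WSD1, which makes the wax esters of stems, read 8.53, 8.77 and 9.11 in aba2/GA20OX1-OE and 6.17, 6.0 and 6.42 in Col-0 (2.61, SE 0.38, adjusted p = 0.00013), 6.09-fold higher. SHN3, a transcription factor of cuticle formation, read 6.76, 6.84 and 7.46 in aba2/GA20OX1-OE and 5.52, 5.74 and 3.61 in Col-0 (2.06, SE 0.58, adjusted p = 0.028), where Col-0 replicate 3 lay far below the other Col-0 arrays and the Col-0 mean was under the bound. The adjusted p of SHN3 was 0.069 after quantile normalization, and its call ended without Col-0 replicate 3 or aba2/GA20OX1-OE replicate 2 or 3 (up to 0.14). AT4G13840 differed by -0.67 (SE 0.19, adjusted p = 0.030) and lost its call without Col-0 replicate 1 or 3 or aba2/GA20OX1-OE replicate 1 or 3 (up to 0.18). Of 2 tested trichome genes 0 were called; SIM, a cell cycle inhibitor that drives endoreduplication in trichomes and the only tested member of the cell cycle list, had the smaller p (0.54, adjusted p = 0.055).

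**Figure D3:**
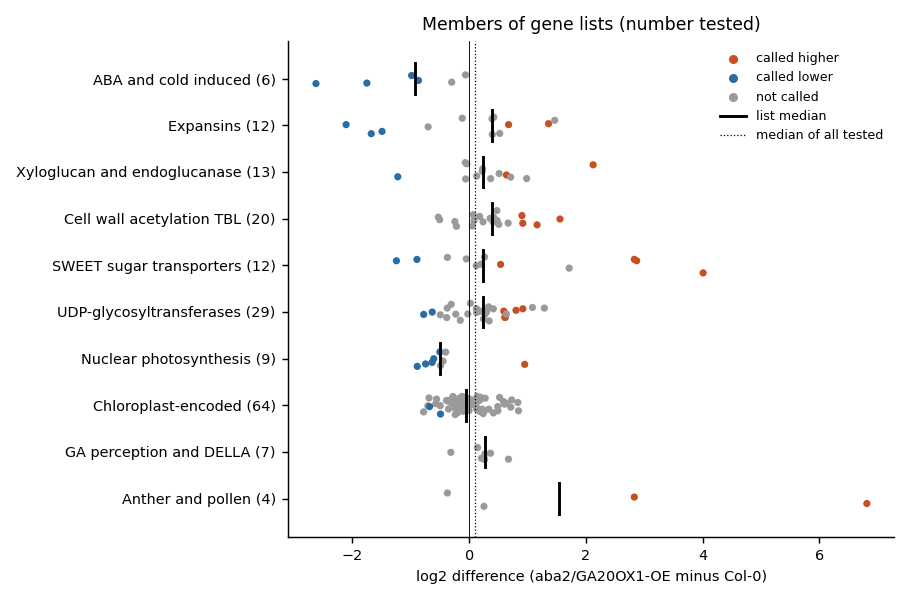
Log2 differences (aba2/GA20OX1-OE minus Col-0) of the tested members of 10 gene lists, with called members in orange (higher) or blue (lower), the list median as a black bar and the median of all tested probe sets, 0.11, dotted. The ABA- and cold-induced genes all lie below 0, the SWEET family spans both directions, and chloroplast-encoded genes lie around 0.

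Nuclear genes of photosynthesis were mostly lower, by small amounts that depended on scaling. Of 9 tested, 5 were called lower and 1 higher, beside 3.53% lower and 5.09% higher of all tested probe sets, with a median of -0.50. With same-numbered arrays as a block, the other 3 (PSB27, LHCB4.1 and RCA) were called lower too, 8 in all, beside the same 1 higher. LHCB4.2, a minor antenna protein of photosystem II, read 14.17, 13.62 and 13.70 in aba2/GA20OX1-OE and 15, 14.71 and 14.46 in Col-0 (-0.89, SE 0.22, adjusted p = 0.012). LHCB4.3 of the same antenna moved the other way, with 10.55, 11.13 and 10.75 in aba2/GA20OX1-OE and 9.96, 10.23 and 9.38 in Col-0 (0.95, SE 0.21, adjusted p = 0.0066). PORB, of chlorophyll synthesis, differed by -0.75 (SE 0.21, adjusted p = 0.029), with overlapping arrays, and PSBW, of photosystem II, by -0.64 (SE 0.17, adjusted p = 0.021).

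PSBY, also of photosystem II, and PSAN were the other called members. After quantile normalization the median was -0.17, and the adjusted p was 0.19 for PORB, 0.078 for PSBW, 0.32 for PSBY and 0.29 for PSAN; LHCB4.2 (-0.54, adjusted p = 0.037) and LHCB4.3 (0.97, adjusted p = 0.0065) were still called, and RCA, the activase of Rubisco, was -0.40 as deposited and 0.01 after quantile normalization, called in neither. Without aba2/GA20OX1-OE replicate 3 no member was called lower, without Col-0 replicate 1 there was 1, without aba2/GA20OX1-OE replicate 2 there were 2, and without aba2/GA20OX1-OE replicate 1 there were 6; LHCB4.3 was called in each case. The array median signals given above differ in the same arrays, and their part in these differences was not tested.

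**Figure D4:**
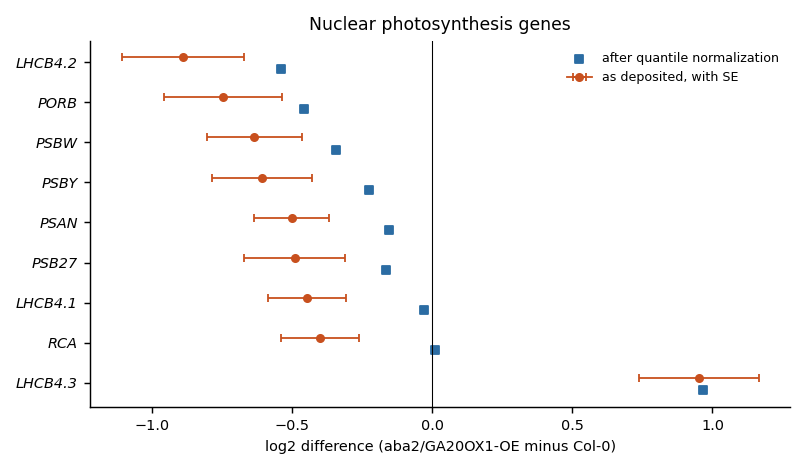
Log2 differences (aba2/GA20OX1-OE minus Col-0) of the 9 tested nuclear photosynthesis genes, as deposited with SE (orange) and after quantile normalization (blue). The deposited signals put 8 genes below 0, and after quantile normalization those 8 lie nearer 0, with RCA just above it at 0.01, while LHCB4.3 is at 0.97.

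Of 64 tested chloroplast-encoded probe sets 2 were called, both lower, beside 3.53% lower of all tested, with a median of -0.06; the replicate block called 5 lower. psbE differed by -0.68 (SE 0.18, adjusted p = 0.020) and ndhI by -0.49 (SE 0.14, adjusted p = 0.030; 0.54 after quantile normalization). Both calls ended without Col-0 replicate 1, Col-0 replicate 2 or aba2/GA20OX1-OE replicate 3, and that of ndhI also without Col-0 replicate 3. The number called lower was 0 to 5 as each array was left out, highest without aba2/GA20OX1-OE replicate 1 or Col-0 replicate 3. Among nuclear chloroplast genes chosen after their values were seen, the thioredoxin TRXF2 differed by -0.79 (SE 0.16, adjusted p = 0.0026) and PIFI, a factor of the chloroplast NDH complex, by -0.60 (SE 0.12, adjusted p = 0.0032).

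Conjugating and detoxifying enzymes changed in both directions. Of 29 tested UDP-glycosyltransferases 4 were higher and 2 lower, beside 5.09% higher and 3.53% lower of all tested, with a median of 0.24 (0.05 after quantile normalization). UGT72E2 (0.92, adjusted p = 0.046) and UGT72E1 (0.80, adjusted p = 0.048), which glucosylate lignin precursors, were higher, as was UGT85A2 (0.62, adjusted p = 0.037). UGT76C2, which inactivates cytokinin, differed by -0.63 (adjusted p = 0.022), and UGT72B3 by -0.78 (adjusted p = 0.038). UGT71B1 was the other called higher (0.59, adjusted p = 0.017). Without Col-0 replicate 3 or aba2/GA20OX1-OE replicate 3 none of the family was called, without aba2/GA20OX1-OE replicate 1 there was 1 higher, without Col-0 replicate 1 there were 2 higher and 1 lower, and without Col-0 replicate 2 none was lower. After quantile normalization 1 was higher and 3 were lower. Of 13 cytochromes P450 1, CYP71B22, was higher (1.04, SE 0.24, adjusted p = 0.0075; 0.054 without aba2/GA20OX1-OE replicate 1). Of 9 glutathione transferases 1, GSTU18, was lower, at 9.98, 9.92 and 9.71 in aba2/GA20OX1-OE against 11.15, 10.71 and 10.67 in Col-0 (-0.97, SE 0.18, adjusted p = 0.0015). With same-numbered arrays as a block, 1 cytochrome P450 was also lower, and 2 glutathione transferases were.

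Lists of other hormones, autophagy and leaf growth gave 1 or 2 calls each, where 8.62% of all tested probe sets were called. In lists this short, 1 or 2 calls say little about a list as a whole. GH3.3, which conjugates auxin, was higher, 1 of 9 auxin genes (1.25, SE 0.35, adjusted p = 0.026). ARR15, a cytokinin-induced response regulator, was lower, 1 of 2 (-0.79, SE 0.24, adjusted p = 0.048). PDF1.2 and PDF1.2b, defensins of the jasmonate and ethylene response, were called higher of 4 jasmonate genes, with overlapping arrays (1.49, adjusted p = 0.013, and 1.46, adjusted p = 0.047); the PDF1.2b probe set can bind transcripts of several genes. Of 11 autophagy genes APG8H (-0.58, adjusted p = 0.013) and ATG8F (-0.54, adjusted p = 0.040), both of the ATG8 family that coats autophagosomes, were lower. PHV, which sets the upper side of leaves, was higher, 1 of 7 leaf growth genes (0.55, SE 0.17, adjusted p = 0.040), and with the replicate block 1 more of these was lower. After quantile normalization the adjusted p was 0.12 for GH3.3, 0.063 for PDF1.2b, 0.10 for ATG8F and 0.089 for PHV, and that of AMY1 above was 0.23.

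Every one of these 7 calls ended without aba2/GA20OX1-OE replicate 3 or, for ARR15, without any single array. GH3.3 also lost its call without aba2/GA20OX1-OE replicate 2 or Col-0 replicate 3, PDF1.2 without Col-0 replicate 2, and APG8H without Col-0 replicate 1. PHV also lost it without Col-0 replicate 1 or 2 or aba2/GA20OX1-OE replicate 1 or 2, PDF1.2b without any Col-0 array or aba2/GA20OX1-OE replicate 1, and ATG8F without any Col-0 array or aba2/GA20OX1-OE replicate 2. Their adjusted p without 1 array was at most 0.23 (PHV). GTR2, a glucosinolate transporter and 1 of 3 tested glucosinolate genes, was higher with every array left out in turn: it read 10.36, 10.45 and 10.90 in aba2/GA20OX1-OE and 9.40, 9.74 and 9.73 in Col-0 (0.95, SE 0.17, adjusted p = 0.00082). With the replicate block 1 of the 3 was also lower. Hsp70-2, the only tested heat shock gene, was higher by 0.84 (SE 0.19, adjusted p = 0.0060; 0.051 without aba2/GA20OX1-OE replicate 3).

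No member passed the test among 7 salicylate and defence genes, with WRKY47 nearest (0.75, adjusted p = 0.076). None did among 6 flavonoid genes (UGT78D2, 0.33, adjusted p = 0.26), 4 senescence genes (SAG29, 1.71, adjusted p = 0.15), or 3 iron genes (AT1G47400, -0.89, adjusted p = 0.054). AT1G47400 was called lower with the replicate block (adjusted p = 0.046), after quantile normalization (0.030), without the trend, with array weights, with the pseudocount and without Col-0 replicate 3. The single tested members of the ethylene (EIN3, 0.02), clock (GI, 0.20) and ribosomal protein (AT1G77750, 0.08) lists were not called, and no brassinosteroid gene was tested.

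Some markers of reproductive organs were higher, 2 of 4 tested for anther and pollen and 1 of 2 tested for flower and meristem. Of the 6 named anther and pollen markers 4 passed the low-signal filter, and ATA27 and SWEET8 rose. The aba2/GA20OX1-OE arrays were part of the mean used by that filter, and markers low in most lines were left out of the tested counts. ATA27, SWEET8 and FD, the called markers, had Col-0 means under the bound. The shares called therefore cannot be weighed against the 5.09% higher of all tested. ACT11, an actin of pollen and ovules, differed by 0.25 (adjusted p = 0.46) and SWEET13 by -0.37 (adjusted p = 0.50). AMS, a regulator of the tapetum, was below the filter but read 6.42, 6.85 and 6.81 in aba2/GA20OX1-OE and -0.20, 3.91 and 4.6 in Col-0, and ACT12 lay under the bound in both. The summed signal of the 6 members was 1442, 2210 and 1773 in aba2/GA20OX1-OE and 492, 512 and 466 in Col-0. ATA27 made up most of this sum on every aba2/GA20OX1-OE array and little of it in Col-0. The gap thus mainly restates that gene and not these markers as a set.

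Of flower and meristem markers FD, the partner of the flowering signal FT, read 6.6, 5.90 and 7.07 in aba2/GA20OX1-OE and 3.10, 5.47 and 5.15 in Col-0 (1.95, SE 0.49, adjusted p = 0.014), a call that ended without Col-0 replicate 1 or aba2/GA20OX1-OE replicate 3 (up to 0.11); its Col-0 mean was under the bound. INO, of the ovule, differed by 0.69 (adjusted p = 0.43), and CLV3 lay under the bound in both groups. The summed signal of these 3 was 143, 112 and 284 in aba2/GA20OX1-OE and 84.8, 71.5 and 75.3 in Col-0. No marker was at 0, a level MAS5 does not give, and no seed marker was named. Among genes chosen after their values were seen, AGL42, a MADS-box factor of flowering, was higher by 2.25 (SE 0.42, adjusted p = 0.0016), ALC, a bHLH factor of fruit opening, by 1.81 (SE 0.27, adjusted p = 0.00013), and SHT, a tapetum enzyme of pollen coat phenolamides, by 3.24 (SE 0.58, adjusted p = 0.0011). The Col-0 means of AGL42 and SHT were under the bound. The summed anther and pollen signal, to which ATA27 and SWEET8 belong, was mostly ATA27 on the aba2/GA20OX1-OE arrays. It was higher on the same arrays as SWEET10, SWEET3 and WSD1, and its part in those rises was not tested. In aba2 that sum was 358, 1171 and 891, and the SWEET10 signal of the same arrays is given below. How both relate was not tested.

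Of 2 tested root markers 1 was lower and 0 were higher: PYK10, a beta-glucosidase most abundant in roots, read 8.76, 9.45 and 7.83 in aba2/GA20OX1-OE and 9.94, 9.74 and 9.66 in Col-0 (-1.10, SE 0.25, adjusted p = 0.0079; 0.053 without aba2/GA20OX1-OE replicate 3), while the root hair expansin EXPA18 differed by 1.47 (adjusted p = 0.14). The summed signal of 3 root markers was 511, 727 and 317 in aba2/GA20OX1-OE and 1017, 867 and 860 in Col-0. PYK10 made up most of this sum on every one of these arrays, so it mainly restates that gene and not root markers as a set.

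A few more genes with a symbol, chosen after their values were seen, kept their call under every alternative setting. CCS, the copper chaperone of superoxide dismutase, read 8.79, 8.58 and 8.84 in aba2/GA20OX1-OE and 10.10, 10.12 and 9.97 in Col-0 (-1.33, SE 0.18, adjusted p = 7.0e-05). TET10, a tetraspanin, differed by -1.14 (SE 0.21, adjusted p = 0.0013), and JAL34, a jacalin-type lectin, by -1.0 (SE 0.22, adjusted p = 0.0058). ACLA-2, a subunit of the enzyme that makes cytosolic acetyl-CoA, read 10.06, 10.17 and 10.19 in aba2/GA20OX1-OE and 9.38, 9.55 and 9.12 in Col-0 (0.79, SE 0.13, adjusted p = 0.00061). SUFE2, which activates sulphur transfer to iron-sulphur clusters, was higher by 1.75 (SE 0.26, adjusted p = 0.00012). Of the 124 called probe sets with a gene symbol 42 kept their call under all alternatives.

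The direct comparisons set aba2/GA20OX1-OE beside the single lines, and aba2/ga20ox1; all of them share the aba2/GA20OX1-OE arrays with the comparison with Col-0. Against aba2, 121 probe sets were called (0.76%), of which 100 were higher (0.628%) and 21 lower (0.132%), out of 1587 at an unadjusted p under 0.05. Against GA20OX1-OE there were 720 (4.52%), with 434 higher (2.73%) and 286 lower (1.8%). Against aba2/ga20ox1 there were 623 (3.91%), with 435 higher (2.73%) and 188 lower (1.18%). The share of higher calls against aba2/ga20ox1 was 69.8% as deposited and 54.1% after quantile normalization. The count against aba2 was 43 without aba2/GA20OX1-OE replicate 2, and 53, 74 and 56 when replicates 1, 2 and 3 of aba2 were left out. That against GA20OX1-OE was 412 without GA20OX1-OE replicate 2. That against aba2/ga20ox1 was 309 without aba2/ga20ox1 replicate 3, 329 without aba2/GA20OX1-OE replicate 3 and 364 without aba2/ga20ox1 replicate 1.

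COR15A lay closer to aba2 than to GA20OX1-OE: it read 9.41, 9.15 and 8.97 in aba2 and 13.13, 13.23 and 12.83 in GA20OX1-OE. The difference of aba2/GA20OX1-OE was -2.86 against GA20OX1-OE (SE 0.33, adjusted p = 1.3e-05) and 1.03 against aba2 (SE 0.33, adjusted p = 0.21), and its arrays overlapped those of neither line. Against aba2 0 of the 6 ABA- and cold-induced genes were called, where 0.76% of all tested probe sets were, so this 0 says little. Against GA20OX1-OE 3 of the 6 were called lower, beside 1.8% lower of all tested. The third, COR15B, beside COR15A and COR47 (-1.06, adjusted p = 0.0014), differed from GA20OX1-OE by -0.86 (adjusted p = 0.014) with overlapping arrays, and lost that call without GA20OX1-OE replicate 1 or 2 or aba2/GA20OX1-OE replicate 1 or 3. Against aba2 COR47 differed by 0.64 (adjusted p = 0.15), LTI30 by 0.77 (adjusted p = 0.087) and HIS1-3 by 1.34 (adjusted p = 0.30), all with aba2/GA20OX1-OE arrays above the aba2 arrays but none past the threshold.

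ZW9 was lower than in each line: it read 7.99, 7.87 and 8.13 in aba2, 10.82, 11.17 and 11.13 in GA20OX1-OE and 8.24, 8.61 and 8.52 in aba2/ga20ox1. The difference was -3.74 against GA20OX1-OE (adjusted p = 1.6e-12), -1.16 against aba2/ga20ox1 (adjusted p = 0.00018) and -0.69 against aba2 (SE 0.16, adjusted p = 0.044). The call against aba2 ended without any aba2 array or aba2/GA20OX1-OE replicate 2 or 3 (adjusted p up to 0.27). CCS was also lower than in each, by -0.90 against aba2 (SE 0.18, adjusted p = 0.018), -1.14 against GA20OX1-OE (adjusted p = 0.00051) and -0.91 against aba2/ga20ox1 (adjusted p = 0.0065). The CCS call against aba2 ended without any aba2 array or aba2/GA20OX1-OE replicate 2 (adjusted p up to 0.13).

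WSD1 was higher than in each line. It read 5.52, 6.93 and 7.15 in aba2, 7.48, 6.41 and 6.81 in GA20OX1-OE and 6.17, 5.47 and 5.85 in aba2/ga20ox1, all below the lowest aba2/GA20OX1-OE array. The difference was 2.27 against aba2 (SE 0.38, adjusted p = 0.0032), 1.90 against GA20OX1-OE (adjusted p = 0.0043) and 2.97 against aba2/ga20ox1 (adjusted p = 7.2e-05), called without each array in turn. AT1G72230 read 10.35, 11.55 and 10.31 in aba2/GA20OX1-OE and 8.34, 8.42 and 8.12 in aba2, a difference of 2.45 (SE 0.30, adjusted p = 0.00014), with 2.01 against GA20OX1-OE (adjusted p = 0.00022). AT5G40630 and AT3G25290 differed from aba2 by 2.55 and 2.3 (adjusted p = 0.00038 and 0.00026) and from GA20OX1-OE by 2.79 and 2.48 (adjusted p = 3.0e-05 and 1.9e-05). AT4G21650 differed by 2.05 from aba2 (adjusted p = 0.0013) and by 3.12 from aba2/ga20ox1 (adjusted p = 2.8e-06), where QQS (2.98, adjusted p = 0.024) also rose, though the QQS call ended without any aba2/GA20OX1-OE array or aba2/ga20ox1 replicate 1 or 2.

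TBL36 was higher by 1.11 against aba2 (SE 0.23, adjusted p = 0.021) and by 0.84 against GA20OX1-OE (adjusted p = 0.037), where the arrays overlapped. Both calls ended without aba2/GA20OX1-OE replicate 2, its highest array, or replicate 3, that against aba2 also without aba2 replicate 1 or 3, and that against GA20OX1-OE without GA20OX1-OE replicate 2 or 3. AT3G59845 was higher by 2.68 against aba2 (adjusted p = 0.037) and 2.76 against aba2/ga20ox1 (adjusted p = 0.011); the first call ended without any single array of either group and the second without aba2/ga20ox1 replicate 1.

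Of the 12 SWEET genes 4 were higher and 2 lower against GA20OX1-OE, beside 2.73% and 1.8% of all tested. Against aba2 0 were higher and 1 lower, beside 0.628% and 0.132% of all tested. The low-signal filter used a mean that included the aba2/GA20OX1-OE arrays, so the shares called higher cannot be weighed against those of all tested. SWEET10 read 8.22, 8.25 and 8.37 in aba2 and 7.55, 5.10 and 5.67 in GA20OX1-OE, and aba2/GA20OX1-OE differed from GA20OX1-OE by 2.70 (SE 0.41, adjusted p = 0.00029) but from aba2 by 0.53 (SE 0.41, adjusted p = 0.75). ATA27 read 5.33, 9.42 and 8.92 in aba2 and 7.30, 3.47 and 6.06 in GA20OX1-OE. Its difference from GA20OX1-OE was 4.36 (SE 1.03, adjusted p = 0.014), a call that ended without GA20OX1-OE replicate 2 or aba2/GA20OX1-OE replicate 2 (up to 0.12), and from aba2 2.07 (adjusted p = 0.53). RXF26 (3.40, adjusted p = 0.0064), AT1G66850 (4.02, adjusted p = 0.017) and LCR66 (3.46, adjusted p = 0.032), a cysteine-rich peptide gene, were also higher than in GA20OX1-OE. GA20OX1-OE replicate 2 was the lowest of its group for all 4, and none of these calls held without it. That of AT1G66850 also ended without aba2/GA20OX1-OE replicate 2, and that of LCR66 without any aba2/GA20OX1-OE array or GA20OX1-OE replicate 3 (adjusted p up to 0.24). The summed anther and pollen markers were 358, 1171 and 891 in aba2 and 771, 440 and 559 in GA20OX1-OE, all below those of aba2/GA20OX1-OE, where ATA27 made up most of the sum.

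**Figure D5:**
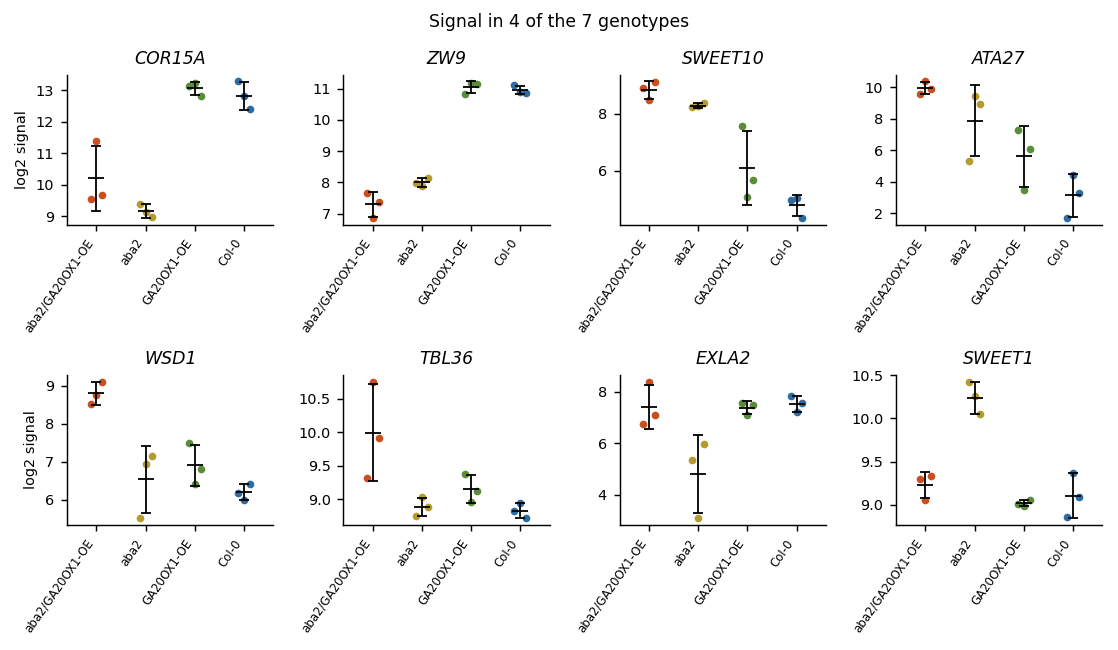
Log2 signal on each array for 8 genes in aba2/GA20OX1-OE, aba2, GA20OX1-OE and Col-0, with mean and SD (n = 3 arrays each; axes do not start at 0). In aba2/GA20OX1-OE COR15A and ZW9 lie closer to aba2 than to GA20OX1-OE and Col-0, WSD1 is above every other array, and EXLA2 and SWEET1 are near GA20OX1-OE and Col-0.

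Some genes differed from aba2 and not detectably from GA20OX1-OE or Col-0. SWEET1, a plasma membrane glucose transporter, read 9.29, 9.06 and 9.34 in aba2/GA20OX1-OE and 10.42, 10.26 and 10.05 in aba2 (-1.01, SE 0.16, adjusted p = 0.0019), and it was called lower without each array in turn. It read 9.01, 8.99 and 9.06 in GA20OX1-OE and 8.86, 9.37 and 9.09 in Col-0. In aba2/ga20ox1 it read 10.31, 10.64 and 10.21, and the difference was -1.16 (adjusted p = 0.00018). EXLA2 read 6.75, 8.39 and 7.10 in aba2/GA20OX1-OE and 5.35, 3.10 and 5.97 in aba2 (adjusted p = 0.011; 0.12 without aba2/GA20OX1-OE replicate 2), while its arrays overlapped those of Col-0 (7.84, 7.21 and 7.55). ACT11 read 8.12, 8.75 and 8.85 in aba2/GA20OX1-OE and 7.30, 7.65 and 7.44 in aba2 (1.11, SE 0.19, adjusted p = 0.0036). INO was higher than in aba2 too (adjusted p = 0.030), with an aba2 mean under the bound and a call that ended without any aba2 array or aba2/GA20OX1-OE replicate 2 or 3.

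Against aba2 the largest falls beside SWEET1 were AT3G44970 (-1.29, adjusted p = 0.027), AT5G55450 (-1.18, adjusted p = 0.015) and AT3G16530 (-1.03, adjusted p = 0.013). AT3G16530 read 11.46, 10.60 and 11.42 in aba2/GA20OX1-OE, 12.08, 12.21 and 12.28 in aba2 and 9.42, 9.45 and 9.59 in Col-0, so that aba2/GA20OX1-OE lay between both (1.68 against Col-0, SE 0.20, adjusted p = 1.5e-05). All 3 calls against aba2 ended without aba2 replicate 2, aba2 replicate 3 or aba2/GA20OX1-OE replicate 2, those of AT3G44970 and AT5G55450 also without aba2 replicate 1, and that of AT3G44970 without aba2/GA20OX1-OE replicate 1.

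Against aba2/ga20ox1 AT3G44970 (-2.32, adjusted p = 3.3e-05) and AT5G55450 (-1.77, adjusted p = 0.00012) were again lower. AT2G43590 was lower too (-1.40, adjusted p = 4.5e-05), and these calls held without each array. PDF1.2b, higher than in Col-0, was lower than in aba2/ga20ox1 (-1.61, adjusted p = 0.047). Its call ended without any aba2/ga20ox1 array or aba2/GA20OX1-OE replicate 2 or 3. Against GA20OX1-OE the largest falls were ZW9, AT2G20670 (-3.04, adjusted p = 0.00044), COR15A and AT1G62510 (-2.07, adjusted p = 0.0033), each called without each array. SLY2 was higher than in GA20OX1-OE, where it read 6.37, 5.34 and 5.87 (1.12, SE 0.26, adjusted p = 0.013; up to 0.11 without GA20OX1-OE replicate 2 or aba2/GA20OX1-OE replicate 3).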

How the data were processed

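RNA of aerial parts was hybridised to 21 one-colour Affymetrix arrays, 3 for each of 7 genotypes. The deposited signal intensity values are linear MAS5 values, per the submitters' processing notes. Neither their version nor their scaling target is stated in those notes. The 21 arrays share a mean of about 499.8 after trimming 2% at each end, so they were scaled before deposit by the authors. No detection calls were used, and the number of arrays limits the precision.

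Signals were taken to log2 without further scaling. Of 22810 probe sets the 64 controls were left out, then the 30% with the lowest mean log2 signal, which left 15922 above a bound of 5.26 (a signal of 38.2). Genotype means over all 21 arrays were fitted with limma 3.58.1 in R 4.3.3 (lmFit, eBayes with trend, 14 residual degrees of freedom), and p-values were adjusted by Benjamini-Hochberg over all tested probe sets, with calls under 0.05. On simulated data for the comparison with Col-0 (15922 probe sets), 60% of 50 changes of 1 log2 unit and 98% of 50 of 2 units were recovered. Of 50 changes of 0.5 units 18% were recovered, and there were 7 false calls. The simulated noise was normal and independent between arrays, without the shared deviations given below, so recovery in the real data may differ. Probe sets were named from the platform annotation table: 13436 have 1 gene, 503 several, and 8730 are not listed. None is named from a probe set with several.

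Named were the 10 largest rises and 10 largest falls with non-overlapping arrays and both means above the bound, up to 5 each way with 1 mean under it (no fold given), up to 4 each way in the direct comparisons, and list members: all called where 4 or fewer are, otherwise up to 3 each way, or the smallest p where none is. More list members are given than that rule asks, and genes said to be chosen after their values were seen fall outside it. The members and lists were chosen with earlier results of these data known.

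Arrays with the same replicate number deviated together for aba2/GA20OX1-OE and Col-0 (correlations 0.148, 0.188 and 0.398) and for aba2/GA20OX1-OE and GA20OX1-OE (0.249, 0.151 and 0.224); the labels do not say what a number marks. Alternatives were no trend, array weights, a replicate block, a fit on the compared groups alone, no or a stricter low-signal filter (50%), a pseudocount of 20.1, quantile normalization and leaving out each array. No genome or promoter sequence was used.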

Additional observations from a re-analysis of the deposited data

How the results depend on the processing

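Against Col-0, 1373 probe sets were called, and 1245 without the trend, 1407 with array weights, 1313 without the low-signal filter, 1095 with the stricter one, 1419 with the pseudocount and 1269 after quantile normalization. A fit of only the groups compared, with fewer arrays behind the spread, called 547 against Col-0, 63 against aba2, 378 against GA20OX1-OE and 363 against aba2/ga20ox1. Array weights called 387 against aba2, 1384 against GA20OX1-OE and 1153 against aba2/ga20ox1; the cause was not tested. With the replicate block, which pairs arrays by number, 1846 were called against Col-0, all 1373 among them. It called 983 against GA20OX1-OE, 169 against aba2 and 979 against aba2/ga20ox1. Same-numbered arrays of aba2/GA20OX1-OE and aba2 also had positive correlations (0.192, 0.064 and 0.381). For aba2/GA20OX1-OE replicate 2, however, aba2 replicate 1 gave a higher one (0.236). With aba2/ga20ox1 the same-number correlations were 0.059, -0.247 and -0.223, so the numbers do not pair those arrays. Leaving out each array in turn gave 822 to 1187 against Col-0, 43 to 157 against aba2, 412 to 556 against GA20OX1-OE and 309 to 502 against aba2/ga20ox1. Of the single-gene differences recomputed, 3652 kept direction and side of the threshold, 872 lost the call, 10 gained it and 5 changed sign. These cover called genes and the genes with the largest differences. The changes of sign among them were in differences from Col-0 that were not called: AT3G44970 was -0.31 after quantile normalization, -0.17 without Col-0 replicate 1, -0.014 without aba2/GA20OX1-OE replicate 1 and -0.18 without aba2/GA20OX1-OE replicate 3, and SWEET1 was -0.0025 without Col-0 replicate 1. Without single arrays AT3G44970 reached at most 0.23 and SWEET1 at most 0.26. Beyond them RCA, not called, was 0.01 after quantile normalization. With 3 arrays a group there is a limit to the small differences that can be called.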
